A study of Mus musculus with 4 samples.

Results

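Merkel cells of embryonic mouse skin were examined as 60 cells from 2 control libraries of a single-cell RNA-seq experiment on sorted skin epithelium. They were selected on their own transcript counts: a cell needed at least 3 UMIs (molecules, counted by their molecular identifiers) of Krt8 and Krt18 together, at least 3 UMIs of Atoh1, Isl1, Sox2 and Krt20 together, and under 20 UMIs of Krt1 and Krt10 per 10000. Barcodes entered the gate if they showed 2000 genes or more and less than 10% of their UMIs were mitochondrial, which held for 11221 of 19789 in the 4 libraries. The gate passed 30 of 3196 cells in Ctrl replicate 1 and 30 of 3391 in Ctrl replicate 2, against 0 of 2161 in TKO replicate 1 and 0 of 2473 in TKO replicate 2. Ctrl embryos carried floxed Suv39h1 and floxed Setdb1, were null for Suv39h2, and lacked Cre. TKO (triple knockout) embryos had the same alleles plus K14CreERT2, a Cre that tamoxifen activates and that the Krt14 promoter restricts to basal keratinocytes and their descendants. Both genotypes received tamoxifen, so Suv39h2 loss and drug exposure were common to all 4 libraries and no wild-type skin was compared. Each library came from 1 embryo at E16.5 by its label, although the study's litter list gives an age 1 day younger, and the study describes the knockout in these embryos as mosaic. Cells had been sorted for Epcam and α6 integrin, 2 surface proteins of basal epithelium, so the share of any cell type depends on that sort.

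Merkel cells are mechanosensory cells of the epidermis that form synapse-like contacts with slowly adapting touch fibres. They arise from the keratinocyte lineage rather than from neural crest, and Atoh1, a basic helix-loop-helix transcription factor, is required for their formation. Mature Merkel cells combine simple epithelial keratins with dense-core granules, voltage-gated calcium channels and the mechanically gated channel Piezo2. In mouse back skin they cluster beside guard hairs in touch domes.

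The values that chose the cells are given as a description. In the 30 cells of Ctrl replicate 1, Krt8 and Krt18 together ranged from 5 to 120 UMIs per cell with a median of 38, and in Ctrl replicate 2 from 3 to 114 with a median of 33.5. The sum of Atoh1, Isl1, Sox2 and Krt20 ranged from 6 to 83 UMIs with a median of 18.5, and from 3 to 86 with a median of 19.5. Most members therefore lay far above the limit of 3 UMIs in both libraries. Atoh1 was detected in 30 and 28 of the 30 cells and Sox2, which acts upstream of Atoh1 in this lineage, in 30 and 30. Isl1, a LIM-homeodomain factor, was present in 18 and 23 cells, and Krt20, a keratin of mature Merkel cells, in 13 and 13.

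Few cells lay close to the limits. In Ctrl replicate 2, 1 member had exactly 3 UMIs of the 4-gene sum and 2 members had exactly 3 UMIs of Krt8 and Krt18. Just outside, 1 cell of TKO replicate 1 had 2 UMIs of the 4-gene sum, and no Ctrl cell with enough keratin did. In Ctrl replicate 1, 1 cell met both lower limits but was left out for its Krt1 and Krt10. It held 67 UMIs of Krt8 and Krt18 and 51 of the other gate sum, with 21.6 UMIs of Krt1 and Krt10 per 10000.

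**Figure D1:**
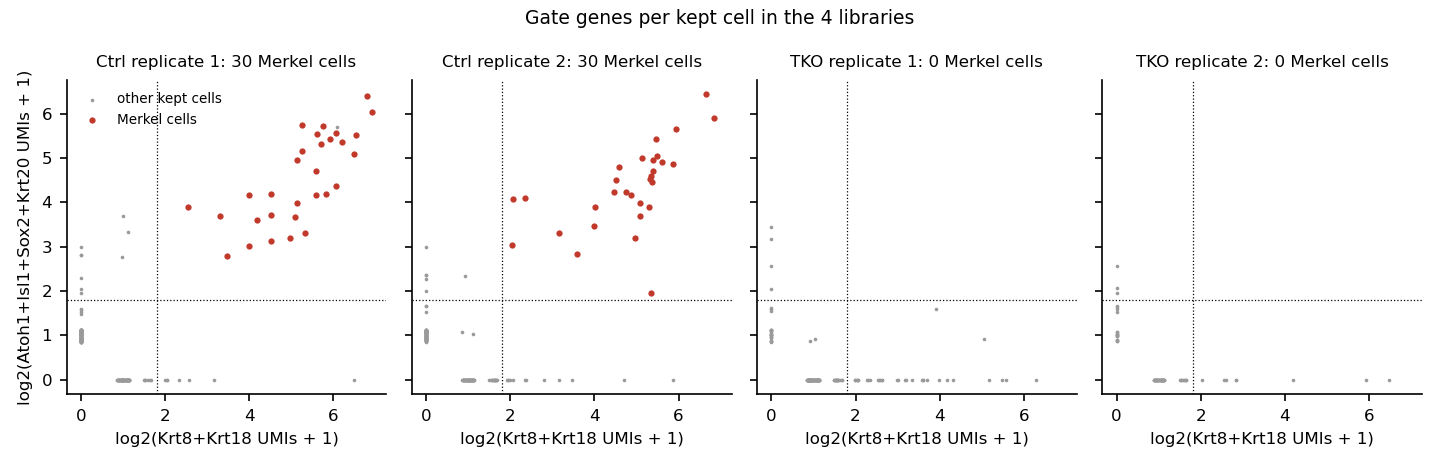
Each point is a kept cell with at least 1 UMI of a gate gene. The horizontal axis gives Krt8 plus Krt18 and the vertical axis Atoh1 plus Isl1 plus Sox2 plus Krt20, both as log2(UMIs + 1), with the limits dotted and Merkel cells in red. The upper right field holds 30 Merkel cells in each Ctrl library and none in either TKO library. The grey point in that field of Ctrl replicate 1 is the cell left out for Krt1 and Krt10.

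Genes outside the gate were then described. Members and gene lists were chosen with earlier results of these data known, so this is no independent check of the label. Ccer2 (ENSMUSG00000096257, GRCm39 chromosome 7, 28455564 to 28458393, plus strand), listed as a Merkel marker but not used to select, was found in all 60 cells. It ranged from 8 to 723 UMIs per cell with a median of 236.5 in Ctrl replicate 1, and from 48 to 736 with a median of 170 in Ctrl replicate 2. Pou4f3, a POU-domain factor shared with inner-ear hair cells, was likewise found in all 60 cells, at 2 to 38 UMIs in Ctrl replicate 1 and 4 to 41 in Ctrl replicate 2. After every cell was thinned to 5000 UMIs, Ccer2 was detected in 100% of Merkel cells of both libraries (95% Clopper-Pearson interval 88.4 to 100 each). It was then seen in 0.452% (interval 0.196 to 0.890) and 0.418% (0.191 to 0.793) of the other Ctrl keratinocytes, and in 0 of 92 and 0 of 135 immune cells, which allows shares of up to 3.26% and 2.22% of cells with a UMI at that depth. Without thinning, the shares in other keratinocytes were 1.80% and 1.39%, and in immune cells 4 of 92 and 0 of 135 cells. Median depths before thinning were 16426 and 13436 UMIs in Merkel cells, 21889 and 17596.5 in other keratinocytes and 20211.5 and 14753 in immune cells.

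Depth varied within the class. Members held 8419 to 72304 UMIs in Ctrl replicate 1 and 6441 to 56583 in Ctrl replicate 2, and 8 cells of each library had 25000 UMIs or more. The median Merkel cell expressed 4899 and 4405.5 genes, with 1.93% and 1.66% mitochondrial UMIs. Scrublet, a doublet caller, placed 1 and 3 members among the top-scoring cells that were left out in an alternative, and none of the 9 barcodes that occurred in more than 1 library was a member. Only 2 and 1 members had 50 or more UMIs of Krt5 and Krt14 per 10000, the limit that defined the comparison cells. These comparison cells, called other keratinocytes here, were all remaining cells above that limit, 1773 and 2158 in Ctrl and 1140 and 1289 in TKO.

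To ask which genes set Merkel cells apart, UMIs were summed per library and class and the 2 Merkel sums (647936 and 609585 UMIs) were compared with the 2 Ctrl sums of other keratinocytes (43797383 and 42613823 UMIs). The test was edgeR's quasi-likelihood test with the embryo as a block and Benjamini-Hochberg adjustment over all genes, and the 10 genes of the gates were left untested. Of 16674 genes tested, 2120 (12.7%) were called higher and 2951 (17.7%) lower in Merkel cells at an adjusted p under 0.05. Because cells were selected on gate genes, genes that accompany those genes were in part selected too, and the calls describe the selected cells. The fit had 1 residual degree of freedom and an estimated prior that was infinite, so the p-values lean on a spread shared by all genes. SEs, printed for many single genes, come from the same fit and lean on that shared spread too. The split of calls depended on scaling: TMM put 41.8% of calls on the higher side with a median log2 difference of −0.13 over all genes, and plain totals put 59.3% there with a median of 0.12. Differences below are on the TMM scale and are to be read against that median of −0.13. Counts from gene lists are to be read against the 12.7% higher and 17.7% lower over all genes.

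Among the 10 genes with the largest positive differences were Ccer2, Pou4f3, Sez6l, Nrxn3, Lhx3, Prrxl1, Fstl4, Rab3c and Nfasc. Ccer2 stood at 12864 and 11291 CPM (UMIs scaled to a common total of 1e6 per sum) in the Merkel sums and at 0.731 and 0.915 CPM in other keratinocytes, a log2 difference of 13.58 (SE 0.154, n = 2 libraries). Pou4f3 had 728 and 792 CPM against 0.0457 and 0.0939 CPM, a log2 difference of 13.06 (SE 0.232). In both genes the groups lay several orders of magnitude apart and the Merkel libraries were close to each other. Lhx3, a LIM-homeodomain factor, had 105 and 47 UMIs against 0 and 2. Prrxl1 (also called Drg11), a homeodomain factor of pain- and itch-sensing neurons, had 125 and 103 CPM against 0.0228 and 0.0235 CPM. Both factors therefore had at most 2 UMIs in either pool of other keratinocytes.

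Sez6l, a neuronal transmembrane protein, reached 123 and 210 CPM and was the gene of this set that was higher in Ctrl replicate 2 by the largest factor. Nrxn3, a presynaptic adhesion receptor, had 1587 and 909 CPM against 0.342 and 0.211 CPM (log2 difference 11.86, SE 0.198). Its Merkel UMIs came from 10 of 30 cells in each library, with a median of 0 UMIs per cell. Rab3c, a small GTPase of synaptic vesicles, had 352 and 390 CPM against 0.0913 and 0.0939 CPM (11.63, SE 0.240). Fstl4 and Nfasc, which encodes the axonal adhesion protein neurofascin, had 441 and 223 CPM and 244 and 285 CPM in Merkel cells, and 0.0457 to 0.117 CPM in other keratinocytes. Nrxn3, Sez6l and Fstl4 overlap other annotated genes on the same strand, so their counts are uncertain to that extent.

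The 250 bases upstream of the annotated start were read for these 10 genes because Atoh1 binds E-boxes, and they are shown for the 3 that held the E-box CAGCTG. Positions are on GRCm39 with the canonical transcript of GENCODE vM39, sequences run 5′ to 3′ on the strand of the gene, and capitals mark CAGCTG, a palindrome that reads alike on both strands. The Ccer2 window is chr7:28455314-28455563 (plus strand), the Sez6l window chr5:112725792-112726041 (minus strand) and the Rab3c window chr13:110416685-110416934 (minus strand). CAGCTG occurred in 3 of the 10 windows and in 11.9% of 21770 windows of all protein-coding genes. The looser pattern CANNTG, which includes it, occurred in 8 of the 10 and in 64.8% of all. A match is a description of the letters and shows no binding.
Ccer2: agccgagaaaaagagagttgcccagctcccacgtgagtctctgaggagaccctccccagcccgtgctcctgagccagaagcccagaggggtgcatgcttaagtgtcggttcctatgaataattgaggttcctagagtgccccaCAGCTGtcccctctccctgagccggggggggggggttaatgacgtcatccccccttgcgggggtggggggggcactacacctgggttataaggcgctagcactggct
Sez6l: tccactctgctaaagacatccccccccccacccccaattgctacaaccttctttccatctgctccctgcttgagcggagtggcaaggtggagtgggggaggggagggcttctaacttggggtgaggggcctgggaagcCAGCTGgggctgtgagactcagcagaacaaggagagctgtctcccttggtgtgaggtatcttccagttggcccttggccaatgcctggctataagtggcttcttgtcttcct
Rab3c: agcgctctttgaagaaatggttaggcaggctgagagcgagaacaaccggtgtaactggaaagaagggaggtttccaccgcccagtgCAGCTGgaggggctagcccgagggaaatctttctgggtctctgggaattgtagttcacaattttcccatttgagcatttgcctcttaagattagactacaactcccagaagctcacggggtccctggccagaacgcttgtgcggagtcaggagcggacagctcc

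Ranked by the difference in CPM, the genes that gained most transcripts in Merkel cells were Ccer2, Malat1, Pcdh9, Dach1, Thsd4, H3f3b, Jun, Prkg1, Thsd7b and Robo1. Pcdh9, a protocadherin, had 4541 and 3678 CPM against 186 and 189 CPM (log2 difference 4.20, SE 0.114). Dach1, a transcriptional cofactor, had 3101 and 2751 CPM against 60.4 and 81.8 CPM (5.13, SE 0.124). Prkg1, the cGMP-dependent protein kinase, had 1583 and 1573 CPM against 2.60 and 3.43 CPM (8.79, SE 0.159). For these 3 genes both Merkel libraries lay far above both libraries of other keratinocytes, and Prkg1 was nearly equal in the Merkel libraries. Thsd4 differed by 8.17 and Thsd7b by 5.44 on the log2 scale, and Robo1, an axon guidance receptor, by 1.97. Jun, an AP-1 subunit and early response gene, differed by 1.36, but its level in other keratinocytes itself varied from 634 to 1456 CPM between the Ctrl libraries. The nuclear RNA Malat1 and the histone gene H3f3b were already abundant in other keratinocytes and differed by 0.41 and 0.48. All of these except Ccer2 and Jun overlap another annotated gene on the same strand.

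**Figure D2:**
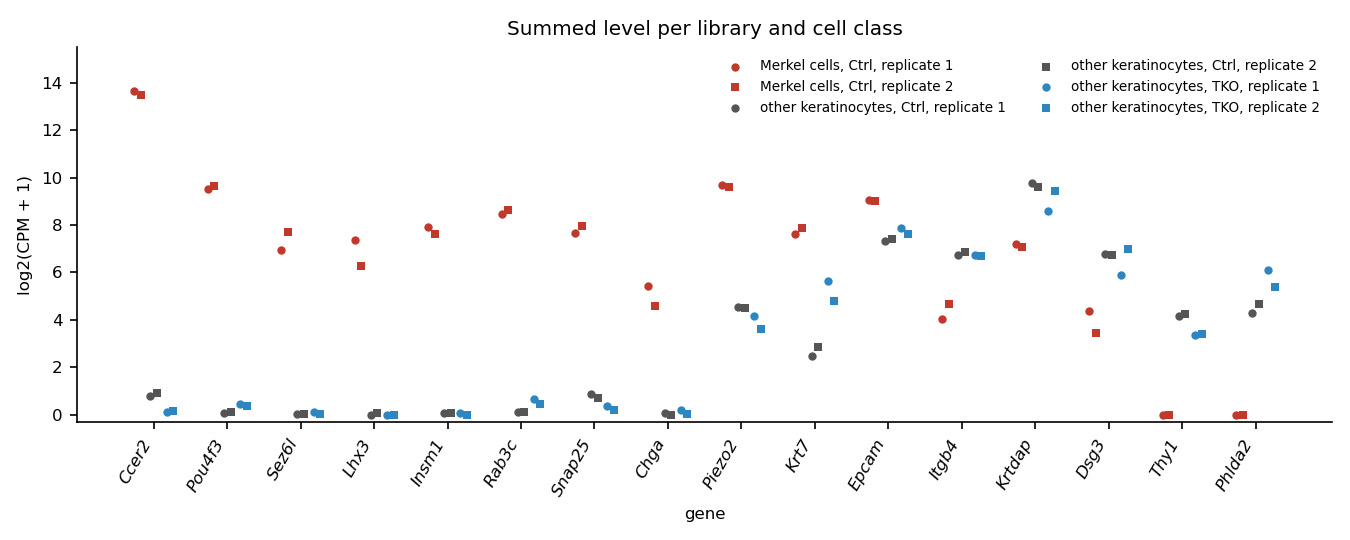
The plot of summed levels gives log2(CPM + 1) for 16 genes in the 2 Merkel sums (red), the 2 Ctrl sums of other keratinocytes (grey) and the 2 TKO sums (blue), with circles for replicate 1 and squares for replicate 2. From Ccer2 to Epcam both Merkel sums lie above all keratinocyte sums, and from Itgb4 to Phlda2 they lie below, with Thy1 and Phlda2 at 0.

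Transcription factors linked to Merkel cells were mostly higher. Of 15 tested members of that list, 12 were called higher and 2 lower, with a median log2 difference of 6.70. Insm1, a zinc finger factor of endocrine cells, had 241 and 195 CPM in Merkel cells and 0.0685 and 0.0704 CPM in other keratinocytes. Hes6, an inhibitor of Hes1, had 341 and 241 CPM against 15.8 and 17.5 CPM (3.87, SE 0.154). Prox1 differed by 7.53 (SE 0.233), and Sox4 and Sox11, SoxC factors of differentiating neurons, by 1.59 and 5.73. Gfi1, a zinc finger repressor that acts downstream of Atoh1 in hair cells, had 23 and 24 UMIs against 0 and 2. Ebf3 showed the widest gap between the Merkel libraries of the factors described here, with 117 and 13.1 CPM. The 2 called lower were Rest, which represses neuronal genes outside neurons (−1.28, SE 0.185), and Gata3, a factor of epidermal and hair fate (−0.88, SE 0.172). Ebf1 was not called, and Barhl1 and Nhlh2 had 1 and 0 UMIs in Merkel cells and were not tested.

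Genes of regulated secretion were present, although several neuropeptides were not found. Of 20 listed genes 9 were tested, with 8 higher, 1 lower and a median of 5.75. Chga (chromogranin A, a granule core protein) had 27 and 14 UMIs against 2 and 0. Genes near 0 in other keratinocytes, such as Chga, entered the test through their Merkel counts. Counts and medians of such lists are therefore in part set by the expression filter. Cpe, which trims peptide hormones, had 100 and 85.3 CPM against 1.69 and 1.22 CPM (5.75, SE 0.394), and Cadps, needed for granule release, differed by 9.17 (SE 0.528). Penk, the enkephalin precursor, had 273 and 305 CPM against 39.7 and 56.5 CPM (2.36, SE 0.142), so its groups did not overlap but other keratinocytes also held it. The convertase gene Pcsk2 was lower, at 7.72 and 14.8 CPM against 41.1 and 44.2 CPM (−2.19, SE 0.344). Vip, Sst, Npy, Tac1, Calca, Scg2 and Pcsk1n had 0 UMIs in the 60 cells, which allows up to 2.39 CPM over both libraries.

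Of 25 tested genes of synaptic vesicles and release, 18 were called higher and 0 lower (median 4.56). Snap25, a SNARE protein of exocytosis, had 199 and 248 CPM against 0.822 and 0.634 CPM (7.99, SE 0.237). Syn2, a synapsin that tethers vesicles, had 286 and 277 CPM against 0.228 and 0.352 CPM (9.65, SE 0.230). Pclo, a scaffold of the active zone, differed by 6.53 (SE 0.169) and the calcium sensors Syt7 and Syt1 by 6.45 (SE 0.224) and 6.57 (SE 0.529). These genes were similar in both Merkel libraries, whereas Stmn2, a microtubule regulator of axons, had 65 and 17 UMIs. Slc17a6, which loads vesicles with glutamate, had 0 UMIs. The monoamine transporter genes Slc18a1 and Slc18a2 had 3 and 6 UMIs over both libraries and were not called.

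Of 16 tested ion channel and receptor genes, 10 were higher and 2 lower (median 2.27). Piezo2, the mechanically gated channel through which Merkel cells sense touch, had 820 and 771 CPM against 22.6 and 21.4 CPM (4.93, SE 0.139). At 5000 UMIs it was detected in 86.7% and 83.3% of Merkel cells, 9.22% and 8.83% of other Ctrl keratinocytes, 23.8% and 16.7% of fibroblasts, and in 0 of 92 and 0 of 135 immune cells. Without thinning the shares were 96.7% and 100% in Merkel cells and 27.7% and 22.5% in other keratinocytes. They were then 44.3% and 40.2% in fibroblasts, and 2 of 92 and 3 of 135 immune cells held a UMI. Its paralogue Piezo1 went the other way, with 12.3 and 13.1 CPM against 36.2 and 38.1 CPM (−1.79, SE 0.341). Calcium channel genes were represented by Cacna1a (4.29, SE 0.178), which encodes a presynaptic pore subunit, and by Cacna2d1 (8.60, SE 0.182), an auxiliary subunit. Among potassium channels, Kcnj3 had 31 and 29 UMIs against 3 and 0, and Kcnma1, the large-conductance calcium-activated channel, differed by 1.38 (SE 0.388).

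Of 21 tested genes of synaptic adhesion and axon guidance, 15 were higher and 2 lower (median 3.28). Beside Nrxn3 and Robo1, Robo2 had 1128 and 850 CPM against 74.6 and 97.2 CPM (3.28, SE 0.126), and Nrcam, a neuronal adhesion molecule, had 299 and 187 CPM against 0.320 and 0.352 CPM (9.22, SE 0.246). The 2 lower genes, Sema3a and Efna5, differed by −0.46 and −0.51, and without TMM factors none of the list was called lower. Of 7 tested neurotrophic genes 2 were higher and 1 lower. Ntf3 (neurotrophin-3, a survival factor for touch neurons) had 194 and 220 CPM against 37.2 and 40.3 CPM (2.17, SE 0.155), and Bdnf had 20.1 and 27.9 CPM against 1.51 and 2.25 CPM (3.43, SE 0.551). The receptor genes Ntrk2, Ntrk3, Ngfr and Ret all had 0 UMIs in Merkel cells.

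**Figure D3:**
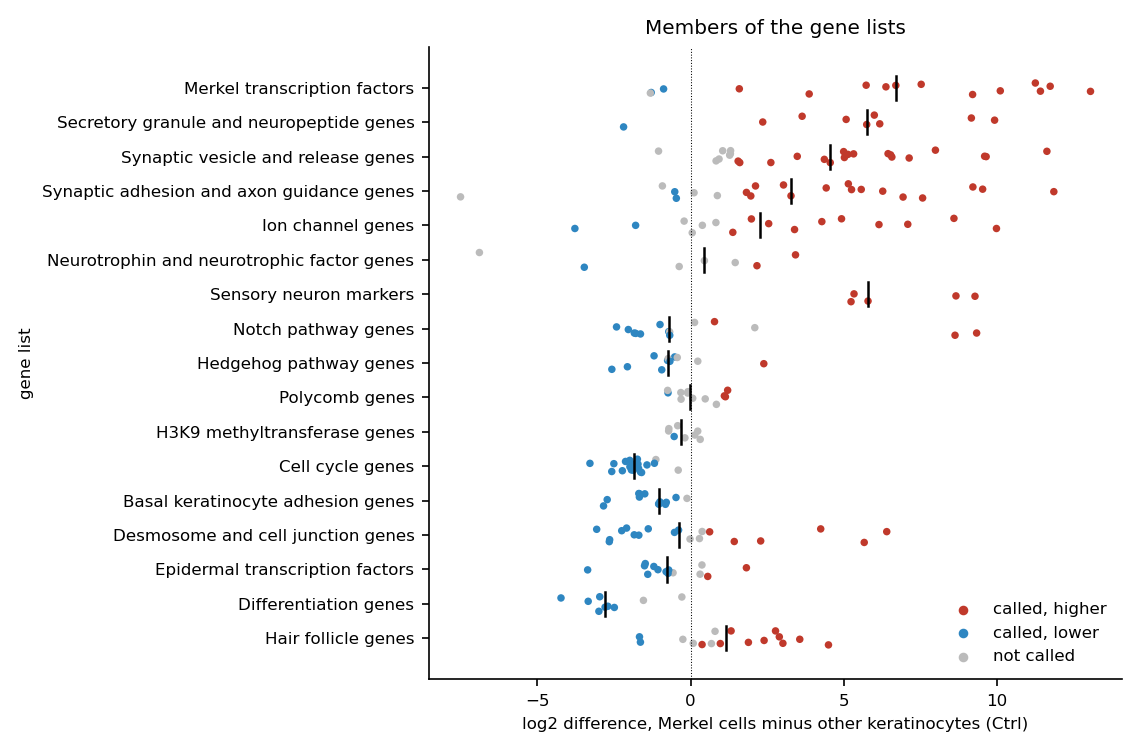
The plot by gene list gives the log2 difference between Merkel cells and other Ctrl keratinocytes for each tested gene, red where called higher, blue where called lower and grey where not called, with list medians as black bars. Neuronal and secretory lists lie mostly to the right of 0, with medians of 2.27 to 6.70 for the transcription factor, secretory, vesicle, channel and adhesion lists, and cell cycle, adhesion and differentiation lists lie to the left.

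Of 3 tested keratins outside the gate, 2 were higher and 1 lower. Krt7, a simple epithelial keratin, had 198 and 236 CPM against 4.59 and 6.34 CPM (5.07, SE 0.194), and Krt17 differed by 1.17 (SE 0.119). Krt15, a keratin of basal and hair progenitors, had 1661 and 1504 CPM against 4715 and 5762 CPM (−1.97, SE 0.098). Krt19 had 1 UMI and Krt6a 0. The keratins that bounded the classes are given without a test: Krt5 had 818 and 691 CPM in Merkel cells against 4336 and 4843 CPM, and Krt14 had 940 and 750 CPM against 7339 and 8143 CPM. Krt8 had 1608 and 1311 CPM against 0.594 and 0.681 CPM.

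Genes that anchor basal keratinocytes were lower, with 12 of 13 tested members called and none higher (median −1.04). Itgb4 and Itga6 encode the α6β4 integrin of hemidesmosomes. Itgb4 had 15.4 and 24.6 CPM against 106 and 115 CPM (−2.72, SE 0.239). Itga6, a gene of the sort itself, had 367 and 256 CPM against 444 and 456 CPM (−0.79, SE 0.126). Col17a1, the hemidesmosomal collagen, differed by −1.67 (SE 0.144). Of 19 tested junction genes, 10 were lower and 6 higher (median −0.39). The desmosomal genes Dsg3 (20.1 and 9.84 CPM against 107 and 105 CPM), Perp (−2.65, SE 0.126) and Dsp (−1.84, SE 0.123) were among the lower. Cldn7 (4.25, SE 0.405), Cldn6 (6.41, SE 0.741) and Cldn3 (5.67), which encode tight junction claudins, and Epcam, also a gene of the sort (537 and 518 CPM against 160 and 170 CPM), were among the higher.

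Of 14 tested epidermal transcription factors 9 were lower and 2 higher (median −0.77). Trp63, the master regulator of stratified epithelium, had 230 and 390 CPM against 751 and 697 CPM (−1.50, SE 0.125). Tfap2a (0.56) and Bach2 (1.82) were the higher members. Of 9 tested differentiation genes 7 were lower and 0 higher (median −2.79). Krtdap, a keratinocyte differentiation gene, had 148 and 135 CPM against 870 and 778 CPM (−2.79, SE 0.137), and Dmkn (dermokine), the list member with the most Merkel UMIs, differed by −2.70. The Krt1 and Krt10 limit of the gate kept differentiating cells out of the Merkel class only, so these counts are in part set by the gate. When other keratinocytes were held to the same limit, 5 of the 9 differentiation genes were lower and 0 higher (median −1.37), with Krtdap at −2.40 and Dmkn at −2.46, and 7 of the 14 epidermal transcription factors were lower (median −0.51).

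The 10 genes with the largest negative fitted differences had 0 UMIs in Merkel cells. They were Phlda2, Thy1, Cxcl2, Zfp804b, F3, Nrg2, Gm15987, Esr1, Cyp2w1 and Egfros. Against a floor of 3 UMIs over both Merkel libraries, Phlda2, an imprinted growth-restraining gene (18.4 and 24.6 CPM in other keratinocytes), was at least 8.998-fold lower. Thy1, a surface glycoprotein (17.2 and 17.8 CPM), was at least 7.32-fold lower, and the chemokine gene Cxcl2 (7.31 and 19.9 CPM) at least 5.68-fold. The bounds of the other 7 ran from 5.49-fold for Zfp804b down to 3.96-fold for Egfros. With DESeq2, 8 of these 10 genes were no longer called, Thy1 and Nrg2 being the exceptions.

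Of 14 tested Notch pathway genes 8 were lower and 3 higher (median −0.70). Notch1, the main receptor of keratinocytes, had 64.8 and 57.4 CPM against 283 and 266 CPM (−2.42, SE 0.167), and its ligand gene Jag1 (−2.03, SE 0.281) and target Hes1 (−1.84, SE 0.239) were also lower. Dll3, an inhibitory ligand, had 144 and 115 CPM against 0.0913 and 0.235 CPM (9.34, SE 0.406). Mfng, a glycosyltransferase that modifies Notch, differed by 8.64 (SE 0.784). Of 11 tested Hedgehog genes 7 were lower and 1, the ligand gene Shh, higher. The Shh difference (2.39) turned to −1.97 with members under 25000 UMIs, and 39 of its 46 Merkel UMIs came from 2 cells. The receptor and target gene Ptch1 differed by −0.75 (SE 0.137), a call that DESeq2 and the fit without the embryo block did not make.

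Of 12 Polycomb genes 3 were higher and 1 lower (median −0.01), where 12.7% of all tested genes were higher and 17.7% lower. Ezh2, the H3K27 methyltransferase, had 332 and 262 CPM against 233 and 243 CPM and was not called (0.07, SE 0.130). Jarid2, a cofactor of the same complex, differed by 1.14 (SE 0.126). Of the 8 genes of the H3K9 methyltransferase list, only Setdb1 was called, at 58.6 and 47.6 CPM against 70.7 and 58.9 CPM (−0.53, SE 0.208, edgeR adjusted p 0.0354). That call was lost with DESeq2, without TMM factors (−0.29), without the embryo block, at 5000 UMIs per cell and without the top Scrublet cells. Suv39h1 and Suv39h2 had 23.2 and 18.05 CPM and 10.8 and 14.8 CPM in Merkel cells and were not called (−0.71 each). Without TMM factors, 2910 of 16674 genes were higher and 1995 lower. In the lists 6 Notch and 5 Hedgehog genes were then lower. No Polycomb gene was lower, and of the H3K9 genes 2 were higher and none lower. The 3′ counts do not show whether floxed or deleted exons were present.

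Cell cycle genes were low. Of 20 tested, 18 were called lower and 0 higher (median −1.86), Ccne2 and Mcm2 being the exceptions. Mki67, a proliferation marker, had 44.8 and 42.7 CPM against 224 and 193 CPM (−2.50, SE 0.184). Top2a had 94.1 and 39.4 CPM against 266 and 254 CPM (−2.23, SE 0.166). At 5000 UMIs per cell, 8 of 30 Merkel cells of Ctrl replicate 1 (26.7%, 95% Clopper-Pearson interval 12.3 to 45.9) and 9 of 30 of Ctrl replicate 2 (30.0%, 14.7 to 49.4) held at least 2 UMIs of the 20 genes. The shares were 78.3% (76.3 to 80.2) and 74.7% (72.8 to 76.5) in other keratinocytes, so the intervals did not overlap in either library. Intervals cover counting error only, and no test was made with 2 libraries. Of 7 tested cell cycle inhibitors 3 were higher and 2 lower. Cdkn1a (p21) differed by 0.98 (SE 0.161), Rb1 by 1.45 (SE 0.153) and Cdkn1c (p57) by −1.95 (SE 0.204).

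The class was not uniform. Isl1 was detected in 18 of 30 and 23 of 30 members, and cells were compared on either side of that line as a description, with the split made after the data were seen. Members without Isl1 UMIs (12 and 7 cells) had 0 UMIs of Nrxn3 and Stmn2, whereas members with Isl1 held 1028 and 554 UMIs of Nrxn3 and 65 and 17 of Stmn2. Rab3c fell in the same direction, with 31.6 and 29.6 CPM without Isl1 and 603 and 529 CPM with it, and so did Prrxl1 (7.02 and 5.91 CPM against 218 and 141 CPM). Krt20 had 5 and 0 UMIs without Isl1 and 43 and 37 with it. These genes were thus nearly confined to one side in both libraries.

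Other members of the program were shared across the line. Pou4f3 had 565 and 739 CPM without Isl1 and 857 and 813 CPM with it, and Lhx3 had 168 and 59.1 CPM without and 157 and 84.0 CPM with it. Atoh1 stood at 256 and 237 CPM without Isl1 and 507 and 393 CPM with it, Ccer2 at 5938 and 6192 CPM against 18301 and 13249 CPM, and Piezo2 at 361 and 278 CPM against 1179 and 960 CPM. Krt14 had 1323 and 893 CPM without Isl1 and 639 and 695 CPM with it, and the 20 cell cycle genes 1239 and 674 CPM against 171 and 479 CPM. These last values rested on few cells. In cells without Isl1, 294 of 353 cell cycle UMIs in Ctrl replicate 1 and 85 of 114 in Ctrl replicate 2 came from a single cell. Without the top cell of each side, a choice made after the data were seen, the cell cycle genes had 277 and 246 CPM without Isl1 against 125 and 352 CPM with it, so the direction differed between the libraries. Krt14 then had 903 and 486 CPM against 205 and 476 CPM. Median depth was 13914 and 17680 UMIs in cells without Isl1 and 17811 and 12931 in cells with it, so the direction of depth differed between the libraries.

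**Figure D4:**
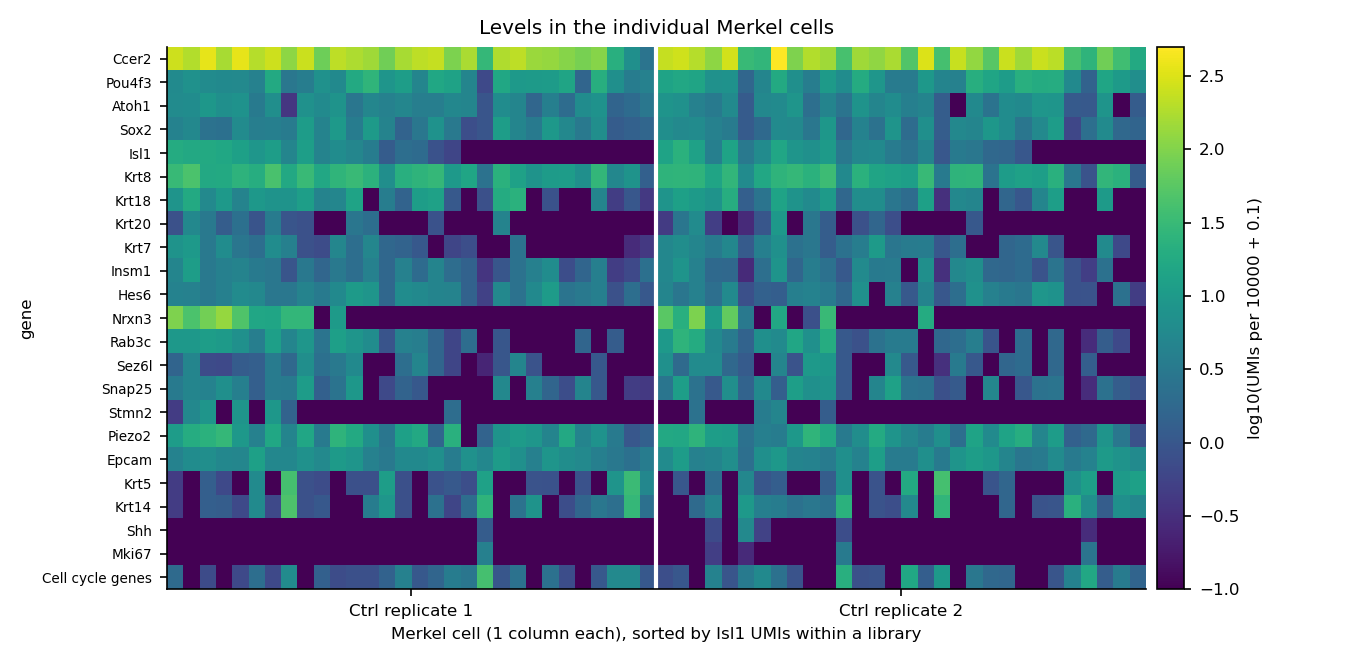
The heatmap shows 22 genes and the summed cell cycle genes in each of the 60 Merkel cells as log10(UMIs per 10000 + 0.1), with cells sorted by Isl1 UMIs within each library. Ccer2 and Pou4f3 are present in every column, whereas Nrxn3, Stmn2 and Krt20 appear in some columns only, mostly those with Isl1 UMIs.

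Depth split the class as well. Members under 25000 UMIs (22 in each library) had Ccer2 at 19225 and 16982 CPM, and the 8 deeper members of each library had 6230 and 6492 CPM. The deeper members carried most of the keratinocyte, hair and cell cycle transcripts of the class: 557 and 404 UMIs of Krt14 against 52 and 53 in the others, and 376 and 257 UMIs of the cell cycle genes against 39 and 68. In Ctrl replicate 1, 294 of those 376 UMIs came from the deepest cell, which held 72304 UMIs. All 29 and 26 UMIs of Mki67 came from them, from 1 cell in Ctrl replicate 1 and 4 cells in Ctrl replicate 2. Among members under 25000 UMIs the cycling share at 5000 UMIs was 3 of 22 (13.6%, interval 2.91 to 34.9) in each library. The part that doublets have in the values of the deeper members was not tested beyond leaving out the top Scrublet cells.

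**Figure D5:**
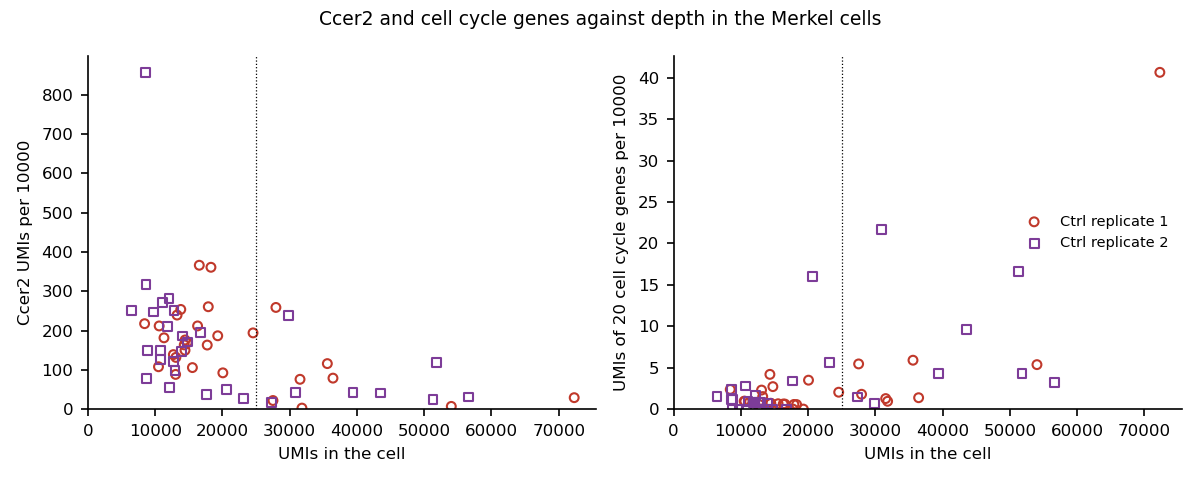
Each point is a Merkel cell, with its UMIs on the horizontal axis and a dotted line at 25000 UMIs. The left panel gives Ccer2 and the right panel the 20 cell cycle genes, both per 10000 UMIs, with circles for Ctrl replicate 1 and squares for Ctrl replicate 2. The 16 deeper cells include the highest cell cycle levels and mostly low Ccer2.

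The hair follicle list depended on these few cells. In the fit with all members, 10 of its 16 genes were called higher and 2 lower (median 1.15), including Lhx2 (3.02), Lgr5 (3.57) and Krt79 (4.50, 157 and 37 UMIs). With members under 25000 UMIs only, a choice made after the data were seen, 4 were higher and 5 lower (median 0.18). Shh, the placode and hair germ ligand, had 8 UMIs from 1 cell in Ctrl replicate 1 and 38 UMIs from 5 cells in Ctrl replicate 2. Its difference was 2.39 with all members and −1.97 without the deeper ones. With members under 25000 UMIs, 1597 genes in all were called higher and 2638 lower, against 2120 and 2951 with all members. In that fit 12 of 15 transcription factors and 19 of 25 vesicle genes were higher. So were 15 of 21 synaptic adhesion genes and 9 of 16 channel genes. In this order, 12, 18, 15 and 9 of them were also called higher with all members. Synaptic adhesion genes called lower went from 2 to 3, and channel genes called higher from 10 to 9. Cell cycle genes stood at 18 lower and 0 higher (median −4.15). Several epidermal and signalling lists had lower medians in that fit, with basal adhesion genes at −2.16, differentiation genes at −4.86 (5 of 9 lower), Notch genes at −1.41, Hedgehog genes at −1.59 (8 of 11 lower, 0 higher), epidermal transcription factors at −1.36 and junction genes at −0.83. Of the H3K9 genes 3 were then lower, in a fit that called 2638 genes lower in all.

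Hair follicle cells, the other keratinocytes with at least 3 UMIs of Shh, Lhx2, Edar, Dkk4 and Wif1, were compared next because Merkel cells and hair follicles form side by side. There were 503 and 541 such cells in Ctrl, and they are included in the other keratinocytes used above, so this comparison shares the Merkel sums with the preceding one. Of 14057 genes tested, 1897 (13.5%) were higher in Merkel cells and 2012 (14.3%) lower, with a median log2 difference of −0.06 over all genes. Plain totals moved the share of calls on the higher side from 48.5% to 58.0%. The 5 largest positive differences were those of Ccer2, Rab3c, Fstl4, Pou4f3 and Sez6l. Ccer2 had 0.641 and 0.497 CPM in hair follicle cells, a difference of 14.21 (SE 0.149, edgeR adjusted p 1.37e-10). Rab3c, Fstl4 and Sez6l had 0 UMIs there, so that their Merkel levels exceeded a floor of 3 UMIs over both libraries at least 3226-, 2922- and 1440-fold. The 5 largest negative differences belonged to Thy1, Phlda2, Cxcl2, Nrg2 and H2ac10, all at 0 UMIs in Merkel cells and at least 9.20-, 6.03-, 4.97-, 4.73- and 4.65-fold lower. Of the lists, 12 of 14 transcription factors of the Merkel list were higher (median 7.37), 16 of 22 vesicle genes were higher and 1 lower (median 4.79), and 18 of 20 cell cycle genes were lower (median −1.88). Epidermal transcription factors had 2 of 14 higher and 5 lower (median −0.02, against −0.77 in the first comparison), and junction genes 6 of 19 higher and 8 lower (median 0.25, against −0.39). Of 12 tested hair follicle genes 5 were higher and 2 lower (median 0.89). With members under 25000 UMIs these medians were −1.05 for epidermal transcription factors, −0.19 for junction genes and −0.24 for hair follicle genes, of which 1 was then higher and 4 lower. Krt15 differed by −1.06 (SE 0.104) from hair follicle cells and by −1.97 from all other keratinocytes.

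The number of Merkel cells was then compared between genotypes. Members made up 1.66% of keratinocytes in Ctrl replicate 1 (30 of 1803, 95% Clopper-Pearson interval 1.13 to 2.37) and 1.37% in Ctrl replicate 2 (30 of 2188, 0.927 to 1.95). TKO replicates 1 and 2 had 0 of 1140 and 0 of 1289 cells, counts that allow shares of up to 0.263% and 0.233%. The Ctrl mean was 1.52% ± 0.207 (SD, n = 2) and both Ctrl libraries lay above both TKO libraries, but with 2 libraries per genotype the exact two-sided permutation p was 0.33, the smallest this design allows. At the mean Ctrl share, the TKO libraries would have held 17.3 and 19.6 Merkel cells per their numbers of other keratinocytes. The gate is counted in UMIs, and other keratinocytes of TKO had median depths of 31519 and 29115 UMIs. With each cell thinned to 5000 UMIs the gate held 26, 23, 0 and 0 cells in Ctrl replicates 1 and 2 and TKO replicates 1 and 2. Since the sort and the gate both stand between skin and count, fewer Merkel cells and Merkel cells with less of the gate transcripts cannot be told apart by the count alone.

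With limits of 5 UMIs the 4 libraries had 30, 26, 0 and 0 cells, with limits of 2 UMIs 30, 30, 1 and 0, and without the cell filter 31, 30, 0 and 0. Any Atoh1 UMI was found in 34, 34, 0 and 0 kept cells. At least 10 Ccer2 UMIs outside the gate were seen in 3 cells of Ctrl replicate 1 and in 0 cells of the other 3 libraries. Either part of the gate alone passed TKO cells. The 4-gene part alone gave 38, 34, 4 and 3 cells, and the 7 TKO cells among them had Sox2, Isl1 or Krt20 UMIs but none of Krt8, Krt18, Atoh1, Ccer2 or Pou4f3. The Krt8 and Krt18 part alone gave 37, 42, 31 and 8 cells. Of these, 7, 12, 31 and 8 failed the 4-gene part, and these had no Atoh1, Sox2 or Pou4f3 UMI and 1 Ccer2 UMI in all. Krt7 (204, 371, 294 and 95 UMIs) was found in 3 of 7, 2 of 12, 10 of 31 and 7 of 8 of them, and Krt19 (105, 215, 531 and 0 UMIs) in 1, 2, 10 and 0. Keratin-positive cells outside the gate were thus seen in both genotypes, and in TKO replicate 1 more than in the other libraries.

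Genes of the Merkel program were also followed in other keratinocytes, where TKO was compared with Ctrl by edgeR without a block. That comparison shares its Ctrl sums with the first one. Of 18823 genes tested, 1115 (5.92%) were higher in TKO and 596 (3.17%) lower (median log2 difference −0.02). Without Ctrl replicate 1 these counts were 327 and 161, without Ctrl replicate 2 they were 317 and 119, and with the replicate block 678 and 374. The study describes keratinocyte clusters seen only in TKO and a mosaic knockout. The pooled classes may therefore also differ in the kinds of cells they hold, which was not counted here. Ccer2 was counted 32 and 39 times in the Ctrl sums but 4 and 5 times in the TKO sums, or 0.731 and 0.915 CPM against 0.0988 and 0.122 CPM (log2 difference −2.89, SE 0.444, edgeR adjusted p 0.0210). Leaving out Ctrl replicate 1 or 2 raised the edgeR adjusted p of Ccer2 to 0.0931 and 0.153. Sox2, a gate gene and so given without a test, had 1.39 and 1.01 CPM in Ctrl and 0.296 and 0.195 CPM in TKO. Both levels were low, and the Ctrl libraries were those that contained Merkel cells. The part that RNA released by Merkel cells has in these counts was not tested.

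Some genes that were high in Merkel cells were called higher in TKO keratinocytes, where 5.92% of all tested genes were higher. They are picked single genes, and the share among all genes high in Merkel cells was not counted. Krt7 rose from 4.59 and 6.34 CPM to 48.5 and 26.6 CPM (2.75, edgeR adjusted p 0.0100), Fstl4 from 0.0457 and 0.117 CPM to 1.36 and 1.58 CPM (4.11, edgeR adjusted p 0.0115), and St18 from 0.137 and 0.469 CPM to 2.59 and 3.58 CPM (3.32, edgeR adjusted p 0.0240). Prkg1 (1.66, edgeR adjusted p 0.0135) and Cldn6 (3.42, edgeR adjusted p 0.0218) were also called higher, the former not without Ctrl replicate 1 and the latter not without either Ctrl library. Rab3c (2.34, edgeR adjusted p 0.0475) lost its call with DESeq2, the replicate block, no expression filter, without the top Scrublet cells and without any 1 of the 4 libraries. In each of these genes both TKO libraries lay above both Ctrl libraries of other keratinocytes and below both Merkel sums. Pcdh9 (−1.04, edgeR adjusted p 0.00444) and Thsd7b (−1.27, edgeR adjusted p 0.00698), high in Merkel cells, were lower in TKO keratinocytes. Pou4f3 (2.23, edgeR adjusted p 0.0730) was not called.

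Of 10 tested transcription factors of the Merkel list 1 was higher and 0 lower (median −0.18), of 22 vesicle genes 1 and 0 (median −0.34), of 16 channel genes 0 and 1, of 21 adhesion genes 1 and 1, and of 8 secretory genes 1 and 1 (median 0.33). Of the 5 keratins outside the gate 2 were higher, Krt7 and Krt19 (2.22, edgeR adjusted p 0.0317), and Krt15 was lower (−1.42, edgeR adjusted p 0.00486), with a median of 2.22. Krt19 was not called without the expression filter, without either Ctrl library or without TKO replicate 1. Cell cycle genes, low in Merkel cells, had 8 of 20 higher in TKO. Of the targeted genes, Setdb1 was lower (70.7 and 58.9 CPM against 40.3 and 43.1 CPM, −0.66, edgeR adjusted p 0.0354, lost with the replicate block, no expression filter, and without either Ctrl library or TKO replicate 1), and Suv39h1 (−0.24, edgeR adjusted p 0.304) and Suv39h2 (0.23, edgeR adjusted p 0.433) were not called.

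Markers of other cell types were examined in the Merkel sums. All 6 muscle markers and 5 of 8 immune markers, among them Ptprc and Tyrobp, were at 0 UMIs, and the immune markers summed to 0 and 11.5 CPM. Of the Schwann markers 5 of 7 were at 0, including Sox10, and Erbb3 supplied most of their 98.8 and 91.9 CPM. Of the melanocyte markers 4 of 7 were at 0, including Dct, and the list summed to 105 and 85.3 CPM through Mitf (54.0 and 32.8 CPM) and Kit (49.4 and 52.5 CPM), both called higher. Endothelial markers summed to 4.63 and 3.28 CPM, and erythroid markers to 9.26 and 11.5 CPM against 19.2 and 371 CPM in other keratinocytes. Fibroblast markers summed to 330 and 584 CPM in Merkel cells and 1182 and 1295 CPM in other keratinocytes, mostly as Dcn, while Pdgfra and Twist2 were at 0. Of 10 sensory neuron markers 5 were tested and 5 were higher, led by Tubb3, a neuronal tubulin (344 and 341 CPM, 8.67, SE 0.196). The list summed to 2.28 and 4.27 CPM in other keratinocytes. Its members could pass the expression filter through their Merkel counts alone, so the count is in part set by that filter. Prph, Tac1 and Scn10a of that list were at 0. Pou4f1, a paralogue of Pou4f3, had 17 and 5 UMIs.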

How the data were processed

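Single-cell libraries were made with 10x 3′ v3 chemistry from sorted epithelial cells of 1 embryo each, 2 Ctrl and 2 TKO. The authors deposited filtered matrices of UMI counts per gene and cell, made with Cell Ranger on GRCm39 (the matrix headers give version 7.1.0). The study's methods name a later version of Cell Ranger. The annotation release and the treatment of intronic reads are not given in the sources used here. The matrices held 56980 genes, and total counts ranged from 70749496 to 89655247 UMIs per library.

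Cells with at least 2000 genes and under 10% mt- UMIs were kept. UMIs were summed per library and class and tested with edgeR 4.0.16 (TMM, filterByExpr, quasi-likelihood, R 4.3.3) at a Benjamini-Hochberg adjusted p of 0.05, with the embryo as a block where classes of the same embryos were compared. DESeq2 1.42.0 was an alternative. Python 3.11.15, numpy 2.4.6, scipy 1.17.1 and scanpy 1.11.5 (Scrublet) served for the remainder. No doublets were removed in the reported values. For shares at equal depth each cell was thinned to 5000 UMIs, and shallower cells (0 Merkel cells, 5 and 7 other Ctrl keratinocytes) were left out.

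Named genes had at least 20 UMIs in each library of the higher class and both libraries above both of the other: the 10 largest differences in each direction, the 10 largest gains in CPM, and 5 in each direction against hair follicle cells. Some genes that met the rule or belong to a list are not reported here. Members and gene lists were chosen with earlier results of these data known. Replicates were separate embryos. The p-values rest on the spread between these samples, which the Merkel against keratinocyte fit shared over all genes (infinite prior). The other fits shared it in part. The tests were run on simulated data for each comparison. With 50 genes changed per fold, the Merkel against keratinocyte test recovered 28 at 2-fold and 50 at 4-fold, over 17469 genes.

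Intervals and limits for counts of 0 (3 counts) cover counting error only. Alternatives covered the gate limits, cell and expression filters, scaling, the block, doublets, thinning and leaving out each replicate.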

Additional observations from a re-analysis of the deposited data

How the results depend on the processing

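The gate at 5 UMIs, the filter at 3000 genes, no expression filter and other keratinocytes with low Krt1 and Krt10 kept the direction and the call of all 81 single genes followed in the Merkel against keratinocyte comparison, and leaving out either embryo kept all 81 directions. Calls of 11 of the 81 were lost with DESeq2, 13 at 5000 UMIs per cell, 8 without the embryo block, 2 without TMM factors and 1 without the top Scrublet cells. With the 3 members that had Krt5 and Krt14, 42 calls were lost. Of 10 genes followed against hair follicle cells, 3 lost their call with DESeq2, 2 after thinning and 1 without the block. Merkel cells against other keratinocytes gave 119 higher and 94 lower with the 3 members that had Krt5 and Krt14, 1032 and 1351 at 5000 UMIs per cell, and 1329 lower with DESeq2. Against hair follicle cells DESeq2 gave 1148 higher and 879 lower, and thinning gave 1197 higher. TKO against Ctrl (1115 higher, 596 lower) gave 1694 and 1038 with DESeq2, 574 and 258 without the expression filter, 699 and 391 after thinning, and 317 to 1749 and 119 to 1205 with each replicate left out. Of 12 genes followed and called there, 6 and 5 lost their call without Ctrl replicates 1 and 2, 3 and 1 without TKO replicates 1 and 2, 3 with no expression filter, 2 with the replicate block, and 1 each with DESeq2 and without the top Scrublet cells. No direction reversed, and the 9 tested after thinning kept their call. With the replicate block these counts were 678 and 374. The replicate numbers do not pair the genotypes (correlation of deviations −0.187 over 16745 genes), and the crossed pairing, chosen after seeing the data, gave 1844 and 1271. The TKO minus Ctrl Merkel share (−1.52 points, also with the block) was −0.341 with the keratin part alone, −1.26 with the gate after thinning, −0.912 of all kept cells, −1.12 with members under 25000 UMIs (chosen after seeing the data), and −1.37 to −1.66 with each replicate left out. The cycling share difference (−48.2 points) was −37.1 and −40.8 with limits of 1 and 4 UMIs, −62.9 with members under 25000 UMIs, and −44.7 to −51.7 with each replicate left out. With the 3 members that had Krt5 and Krt14 the log2 differences reversed for Malat1 (−0.0022), H3f3b (−0.14), Krt15 (0.081), Piezo1 (0.74), Bdnf (−8.26), Shh (−9.80), Setdb1 (0.22) and Itga6 (0.015), and with members under 25000 UMIs for Shh (−1.97). The alternative with Krt5 and Krt14 holds 3 cells. These had 0 UMIs of Shh, so −9.80 is a fitted value for a class at 0. The cause of the other changes was not tested. With 60 Merkel cells in 2 embryos and sums of 647936 and 609585 UMIs, genes at low levels were not detectable at this depth.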
